A study of Mus musculus with 9 samples.

Results

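The carnitine shuttle and its control by malonyl-CoA were followed as a set of 10 genes in cardiomyocytes taken at birth from mouse pups. The members were chosen by symbol from the 18738 genes of the table: Cpt1a, Cpt1b, Cpt1c, Cpt2, Slc25a20, Slc22a5, Crat, Mlycd, Acaca and Acacb. All 10 were found, and all 10 passed the filter on low values, a mean of 1 TPM or more, that left 13655 genes to test. TPM is a length-corrected share of a library's transcripts, scaled to a fixed total. The pups were wild-type C57BL/6J and differed in what their mothers ate throughout gestation, by random allocation: normal diet in the ND group, slight high-fat diet in the sHFD group and high-fat diet in the HFD group. The composition of the diets is not given in the sources used here. Cardiomyocytes were isolated at postnatal day 0, and each diet had 3 RNA-seq libraries. The labels do not say whether the libraries of a diet came from separate litters or animals, so p-values measure the spread between these libraries, which may be technical.

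Long-chain fatty acids cannot cross the inner mitochondrial membrane as acyl-CoA. Carnitine palmitoyltransferase 1 in the outer membrane moves the acyl group to carnitine, a translocase carries the acylcarnitine inward, and carnitine palmitoyltransferase 2 on the matrix side returns the group to CoA for beta-oxidation. Malonyl-CoA, made by the acetyl-CoA carboxylases and removed by malonyl-CoA decarboxylase, inhibits the outer enzyme, and the heart is known to turn from glucose and lactate to fatty acids as its main fuel around birth.

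The number of reads behind these values is unknown, since TPM does not carry it. The libraries listed 16722 to 17105 genes above 0, and their 20 most abundant genes held 9.19% to 12.5% of the total. The ND libraries diverged from each other: by the mean Pearson correlation over genes, ND replicate 1 was closer to the HFD libraries (0.989) than to the other ND libraries (0.981). ND replicates 2 and 3 were closer to the sHFD libraries (0.993 and 0.990) than to the other ND libraries (0.983 and 0.988). The cells' label was checked with 10 cardiomyocyte markers, all of them present, with summed levels of 23447 to 41338 TPM in ND, 41546 to 56216 TPM in sHFD and 28174 to 35043 TPM in HFD. Markers of other cells were present too: 8 fibroblast markers summed to 7392 to 11247 TPM and 8 endothelial markers to 5665 to 9621 TPM over the 9 libraries. In such bulk samples fewer cells of a type and less RNA per cell cannot be told apart.

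All 10 genes had their lowest mean in HFD cardiomyocytes. Against sHFD, 8 of the 10 members were lower in HFD with limma's test over all genes (adjusted p under 0.05), where 23.9% of all genes tested were lower and 10.3% higher, and in 9 of 10 every HFD library lay below every sHFD library, which was so for 34.7% of all genes. Against ND, 5 of 10 were lower, where 9.59% of all genes were lower and 1.28% higher, and 7 of 10 did not overlap, where 22.9% of all genes did not in that direction. Between sHFD and ND 0 of 10 passed, where 0.00732% of all genes did, and all 10 overlapped, where 9.4% of all genes did not. The median log2 difference of the members was -1.09 for HFD vs sHFD, -0.82 for HFD vs ND and 0.39 for sHFD vs ND, beside -0.16, -0.14 and 0.0010 for all genes. Under median-ratio scaling the members' medians were -0.93 for HFD vs sHFD and -0.67 for HFD vs ND. The HFD and ND comparisons share libraries, as do the other pairs, and so are not independent of each other.

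**Figure D1:**
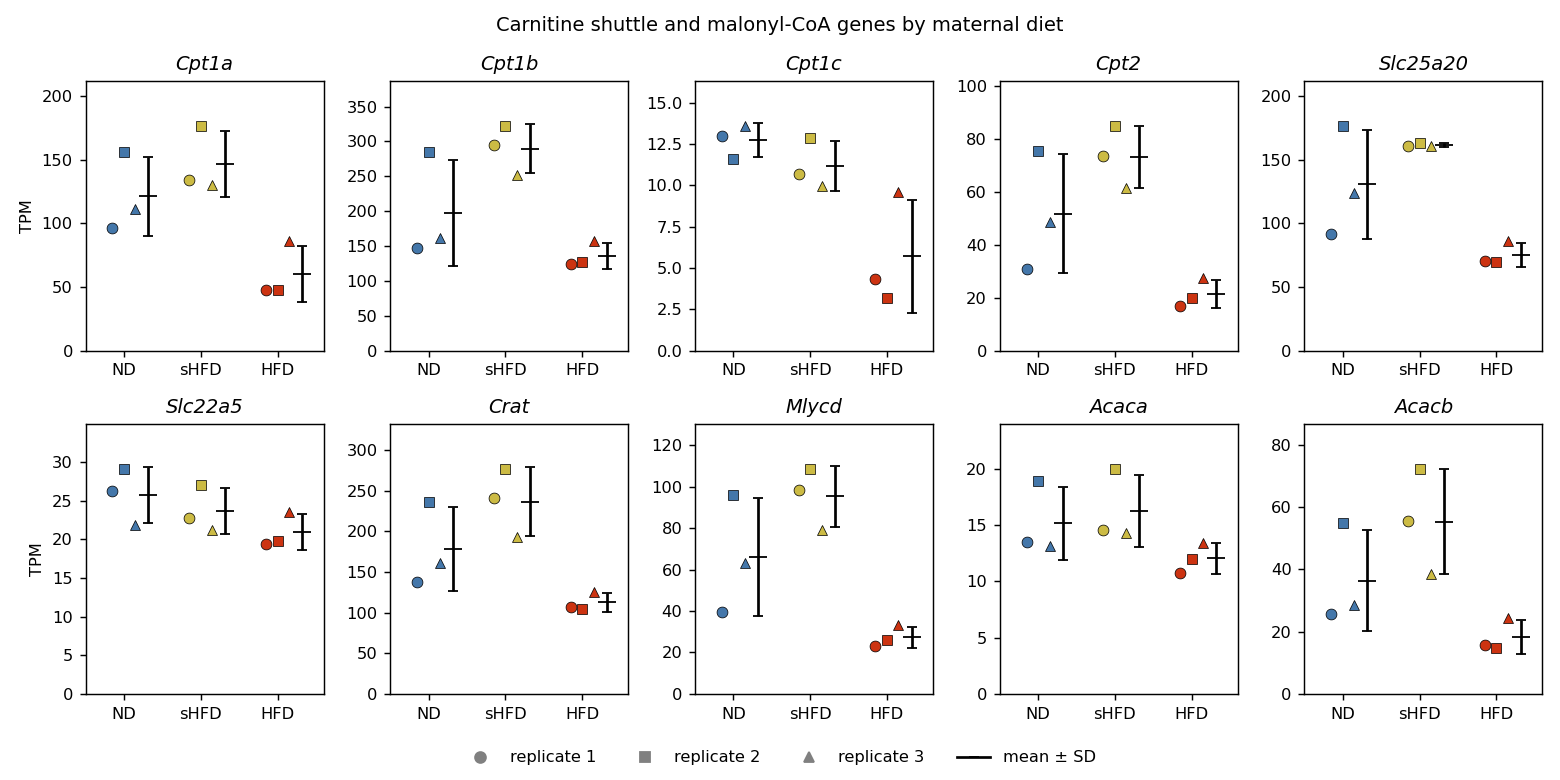
TPM of the 10 members in each of the 9 libraries, grouped by maternal diet (ND, sHFD, HFD), with the replicate as the symbol and the mean ± SD of 3 libraries as a bar. All HFD libraries lie below all sHFD libraries in 9 of the 10 panels, and Slc22a5 is the panel where they overlap.

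By level, the members kept nearly the same order in every library. Cpt1b was the most abundant with a mean of 208 TPM over the 9 libraries, followed by Crat (176 TPM), Slc25a20 (123 TPM), Cpt1a (109 TPM), Mlycd (62.9 TPM), Cpt2 (48.7 TPM), Acacb (36.6 TPM), Slc22a5 (23.4 TPM), Acaca (14.5 TPM) and Cpt1c (9.88 TPM). Of the 9 neighbouring pairs in this order, 6 held in 9 of 9 libraries. Slc25a20 exceeded Cpt1a in 7 of 9 libraries, Acacb exceeded Slc22a5 in 6 of 9 and Acaca exceeded Cpt1c in 8 of 9, so those neighbours were not separated beyond the spread.

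Promoter sequence is shown for the members that carry the results: Cpt2 and Mlycd, which ran in parallel over the libraries, Cpt1a and Slc25a20, which were lower with them in HFD, and Slc22a5, which passed in no comparison. RefSeq (GRCm38.p6) gave a promoter window for 8 of the 10 members, with Cpt1b and Crat not matched. The stretches below, 5′ to 3′ on the strand of the gene, are the parts of the 250 bases upstream of the listed start that lie in no GENCODE M21 exon, and capitals mark every whole match to the motifs searched. They are Cpt2 at chr4:107923611-107923839 (minus strand), Mlycd at chr8:119394644-119394877 (plus), Cpt1a at chr19:3323051-3323284 (plus), Slc25a20 at chr9:108661886-108662087 (plus) and Slc22a5 at chr11:53891704-53891953 (minus).
Cpt2: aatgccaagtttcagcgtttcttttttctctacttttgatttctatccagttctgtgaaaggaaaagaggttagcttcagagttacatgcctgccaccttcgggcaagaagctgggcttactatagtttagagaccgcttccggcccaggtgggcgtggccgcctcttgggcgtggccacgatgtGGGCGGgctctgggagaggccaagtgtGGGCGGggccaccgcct
Mlycd: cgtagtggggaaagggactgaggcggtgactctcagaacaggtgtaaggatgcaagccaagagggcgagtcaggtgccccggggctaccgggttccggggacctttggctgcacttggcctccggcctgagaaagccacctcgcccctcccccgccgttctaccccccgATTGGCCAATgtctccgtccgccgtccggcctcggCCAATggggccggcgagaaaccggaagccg
Cpt1a: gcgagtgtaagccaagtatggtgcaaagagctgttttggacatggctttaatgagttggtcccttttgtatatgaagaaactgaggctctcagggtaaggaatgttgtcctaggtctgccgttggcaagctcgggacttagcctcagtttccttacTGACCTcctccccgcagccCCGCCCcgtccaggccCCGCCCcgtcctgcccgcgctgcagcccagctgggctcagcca
Slc25a20: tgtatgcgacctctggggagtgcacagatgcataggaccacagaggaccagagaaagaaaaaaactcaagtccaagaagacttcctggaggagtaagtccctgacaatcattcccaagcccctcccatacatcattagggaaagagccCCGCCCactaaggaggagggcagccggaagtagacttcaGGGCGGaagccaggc
Slc22a5: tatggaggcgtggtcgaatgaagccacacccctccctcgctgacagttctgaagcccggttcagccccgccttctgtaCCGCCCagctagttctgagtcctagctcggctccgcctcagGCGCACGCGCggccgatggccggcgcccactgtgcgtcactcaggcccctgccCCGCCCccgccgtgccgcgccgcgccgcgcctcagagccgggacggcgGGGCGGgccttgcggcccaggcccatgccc
Motifs were searched on both strands of the whole window of 300 bases. The nuclear receptor hexamer, spelled AGGTCA, was in 3 of the 8 member windows, those of Cpt1a, Cpt1c and Acacb, and in 16.3% of all 32851 windows. Its direct repeat with a spacer of 1 base, which PPAR with RXR can bind, was in 0 of 8 and in 0.0396% of all windows, and the extended hexamer of the oestrogen-related receptors in 0 of 8 and 0.423%. Both of these longer motifs contain the hexamer. The GC box, spelled GGGCGG, was in 5 of 8 windows against 35.7% of all, among them Cpt2, Cpt1a, Slc25a20 and Slc22a5. The CCAAT box was in 4 of 8 against 37.4% of all, with 3 matches in Mlycd. The NRF1 element was in Slc22a5 alone, 1 of 8 against 4.6% of all windows. The TATA box, spelled TATAAA, was in Acacb alone, 1 of 8 against 13.6% of all, and the E-box, spelled CACGTG, in 0 of 8 against 7.15%. Mlycd and Cpt2, whose levels ran in parallel, thus shared none of these matches in these windows. The start listed for Acaca lies 65803 bases and that for Acacb 19197 bases inside the annotated gene, and that for Cpt1a, whose stretch is printed, 975 bases inside. Those for Slc22a5, Mlycd and Cpt1c lie 93, 42 and 29 bases inside. These windows are thus not those of the outermost start. The printed stretch of Cpt1a lies inside the annotated gene, and those of Slc22a5 and Mlycd reach into it.

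The outer-membrane enzymes come first in the pathway (gene positions here are those of RefSeq on GRCm38.p6). Cpt1a (chr19:3322326-3385735) encodes the so-called liver isoform, which the immature heart also uses. The ND libraries held 96.6, 156 and 111 TPM, the sHFD libraries 134, 176 and 129.8 TPM, and the HFD libraries 47.3, 47.9 and 85.8 TPM. Every HFD library was below every ND and sHFD library, and HFD replicate 3 stood closest to them. The log2 difference was -1.31 for HFD vs sHFD (SE 0.24, limma adjusted p = 0.00253) and -1.02 for HFD vs ND (SE 0.24, adjusted p = 0.0223). Cpt1b (chr15:89416405-89425862) encodes the isoform of adult muscle and heart, and was 147, 285 and 161 TPM in ND, 295, 322 and 252 TPM in sHFD and 124, 127 and 158 TPM in HFD. HFD replicate 3 lay within the ND range, and Cpt1b was lower only against sHFD among these tests (log2 -1.09, SE 0.22, adjusted p = 0.00403), with a log2 difference from ND of -0.48 (95% interval -0.96 to 0.0036, adjusted p = 0.171). The change of Cpt1a against ND was not tested against that of Cpt1b.

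Cpt1c (chr7:44958483-44974880) encodes an isoform best known from neurons, where it resides in the endoplasmic reticulum and has little transferase activity. It was 13.02, 11.6 and 13.6 TPM in ND, 10.7, 12.9 and 9.97 TPM in sHFD and 4.34, 3.20 and 9.59 TPM in HFD. HFD replicate 3 was far above the other HFD libraries and just under the lowest sHFD library. The log2 difference was -1.15 for HFD vs ND (SE 0.29, adjusted p = 0.0265) and -0.97 for HFD vs sHFD (SE 0.29, adjusted p = 0.0206). Its call against sHFD was lost under quantile normalization (log2 -0.62, adjusted p = 0.0821) and without sHFD replicate 1 (adjusted p = 0.05), sHFD replicate 2 (0.0727), HFD replicate 1 (0.0687) or HFD replicate 2 (0.103). Exons of Cpt1c overlap an antisense transcript over 366 bases in GENCODE M21, and without a stated strand the reads of both cannot be told apart.

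The translocase and the inner enzyme fell as well. Slc25a20 (chr9:108662136-108684642) encodes the carnitine-acylcarnitine translocase, and was 91.8, 177 and 124 TPM in ND, 161, 163 and 160.45 TPM in sHFD and 70.3, 69.6 and 86.4 TPM in HFD. The sHFD libraries were nearly equal, whereas the ND libraries spread widely around them. Its log2 difference was -1.10 for HFD vs sHFD (SE 0.20, adjusted p = 0.00262) and -0.74 for HFD vs ND (SE 0.20, adjusted p = 0.0369). Cpt2 (chr4:107903982-107923589), which encodes carnitine palmitoyltransferase 2, was 31.0, 75.4 and 48.5 TPM in ND, 73.5, 84.8 and 61.4 TPM in sHFD and 16.9, 19.9 and 27.3 TPM in HFD. All HFD libraries lay below all others. The log2 difference was -1.75 for HFD vs sHFD (SE 0.27, adjusted p = 0.00148) and -1.17 for HFD vs ND (SE 0.27, adjusted p = 0.0215).

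Mlycd (chr8:119394852-119421838), which encodes the decarboxylase that degrades malonyl-CoA, had the largest difference of the 10 between HFD and sHFD. It was 39.4, 96.1 and 62.9 TPM in ND, 98.2, 108 and 79.2 TPM in sHFD and 23.3, 25.9 and 33.0 TPM in HFD. The groups did not overlap between HFD and either other diet. The log2 difference was -1.76 for HFD vs sHFD (SE 0.26, adjusted p = 0.00123) and -1.17 for HFD vs ND (SE 0.26, adjusted p = 0.0195). Over the 9 libraries Mlycd and Cpt2 followed nearly the same pattern: after each gene was centred at its own mean, they differed by a mean of 0.033 on the log2(TPM + 1) scale.

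Of the carboxylases that make malonyl-CoA, Acacb was lower in HFD than in sHFD and Acaca passed in no comparison, and the difference between them was not tested. Acacb (chr5:114146321-114250761) encodes the carboxylase attached to the outer mitochondrial membrane, whose product is the pool that meets carnitine palmitoyltransferase 1. It was 25.5, 54.95 and 28.4 TPM in ND, 55.4, 72.1 and 38.4 TPM in sHFD and 15.6, 14.6 and 24.5 TPM in HFD. HFD lay below both other diets in every library, by a log2 of -1.54 against sHFD (SE 0.30, adjusted p = 0.00314) and by -0.91 against ND (SE 0.30, 95% interval -1.55 to -0.26, adjusted p = 0.0666), which missed the threshold. Acaca (chr11:84129635-84401651) encodes the cytosolic carboxylase of fatty acid synthesis, and was 13.5, 18.9 and 13.1 TPM in ND, 14.5, 19.9 and 14.3 TPM in sHFD and 10.7, 11.96 and 13.4 TPM in HFD. Every HFD library lay below every sHFD library, while HFD and ND overlapped, with log2 differences of -0.40 for HFD vs sHFD (95% interval -0.84 to 0.05, adjusted p = 0.151) and -0.30 for HFD vs ND (95% interval -0.74 to 0.15, adjusted p = 0.352).

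Carnitine itself enters the cell through the transporter OCTN2, encoded by Slc22a5 (chr11:53864542-53891796), which had the smallest HFD differences of the 10. Its level was 26.2, 29.1 and 21.9 TPM in ND, 22.8, 27.0 and 21.2 TPM in sHFD and 19.4, 19.8 and 23.6 TPM in HFD. The groups overlapped in each comparison, with a log2 difference of -0.17 for HFD vs sHFD (95% interval -0.55 to 0.22, adjusted p = 0.487; 0.03 under quantile normalization) and of -0.28 for HFD vs ND (95% interval -0.66 to 0.10, adjusted p = 0.309). Crat (chr2:30400476-30416017) encodes carnitine acetyltransferase, which exchanges short acyl groups between CoA and carnitine and thereby buffers acetyl-CoA. It was 137, 236 and 161 TPM in ND, 241, 277 and 193 TPM in sHFD and 108, 105 and 126 TPM in HFD. HFD did not overlap with either diet, and the log2 difference was -1.05 against sHFD (SE 0.20, adjusted p = 0.00308) and -0.62 against ND (SE 0.20, 95% interval -1.06 to -0.18, adjusted p = 0.0648), the second missing the threshold. Crat exons overlap, on the opposite strand, those of the antisense gene Gm16323 over 411 bases and those of Dolpp1 over 59 bases, and Cpt1b shares 2744 exonic bases with the predicted gene Gm44502 on its own strand, so the values of both members are uncertain.

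**Figure D2:**
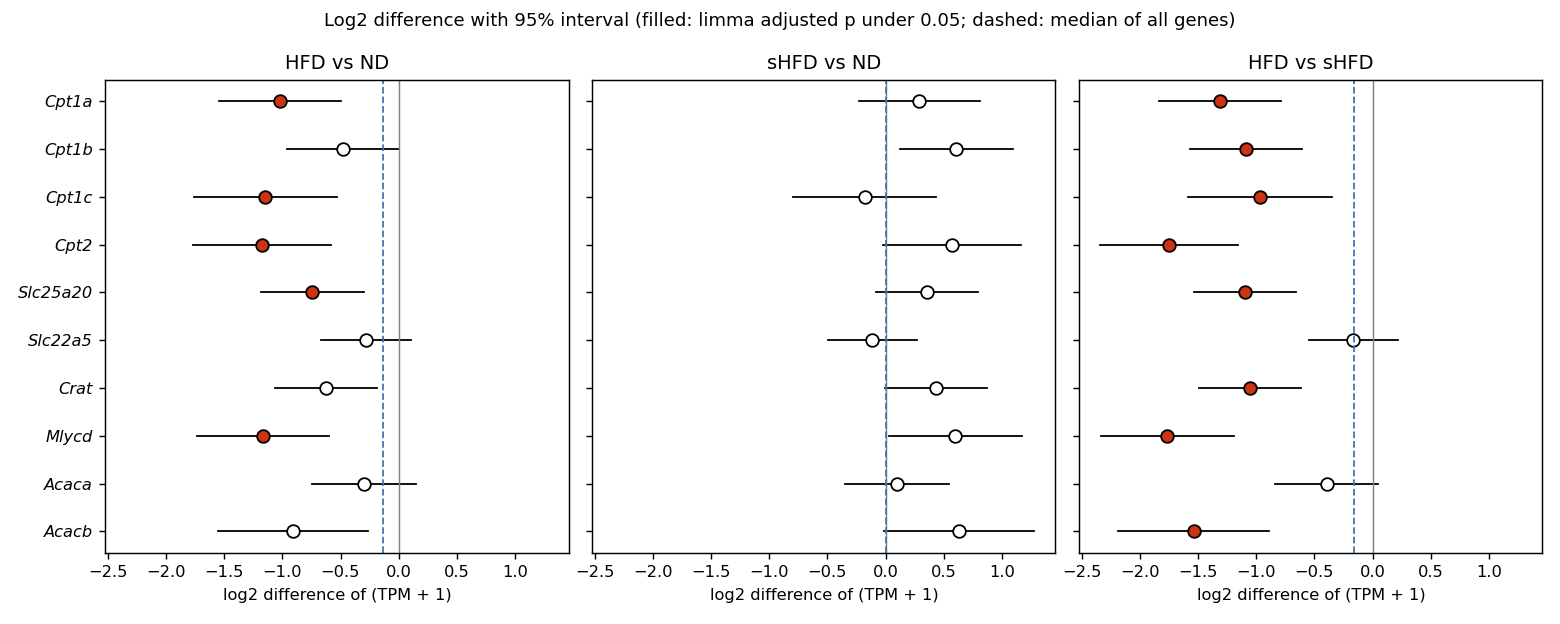
Log2 difference of (TPM + 1) with its 95% interval from limma for the 10 members in HFD vs ND, sHFD vs ND and HFD vs sHFD, filled where the adjusted p was under 0.05, with the median of all genes dashed. The HFD vs sHFD values run from -1.76 in Mlycd to -0.17 in Slc22a5, and the sHFD vs ND panel has 0 filled points.

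The count against ND depended on single libraries of both diets. ND replicate 1 was the lowest ND library in 7 of 10 members and ND replicate 2 the highest in 9 of 10, and HFD replicate 3 was the highest HFD library in 10 of 10. The 5 members lower in HFD than in ND became 8 without ND replicate 1 (20.9% of all genes were then lower) and 2 without ND replicate 2 (4% of all genes). Those gained without ND replicate 1 were Cpt1b, Crat and Acacb, and those kept without ND replicate 2 were Cpt1c and Mlycd. Slc25a20 also lost its call without any single sHFD replicate and under median-ratio scaling (adjusted p = 0.0579), and Cpt1c under quantile normalization (0.0627). Without HFD replicate 3 the count was 6 (11.5% of all genes). Leaving out ND replicate 3, HFD replicate 1 or HFD replicate 2 gave 0, where 0.249%, 0.854% and 0.197% of all genes were lower. It was also 0 when only the ND and HFD libraries entered the fit (2.82% of all genes) and 1 with no filter on low values (3.66%). All 200 HFD vs ND values, from 10 members in 20 alternative fits, were negative. HFD vs sHFD was steadier: 7 of the 8 calls, those other than Cpt1c, held in all 20 alternative fits.

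Between sHFD and ND, 8 of 10 members had their higher mean in sHFD. The log2 differences ran from -0.18 in Cpt1c to 0.63 in Acacb. At an unadjusted p under 0.05 there were 2 members, Cpt1b (log2 0.61, SE 0.22, limma adjusted p = 0.672) and Mlycd (log2 0.60, SE 0.26, adjusted p = 0.672), against 1005 of the 13655 genes. Every member's sHFD range overlapped its ND range. Without ND replicate 2, Cpt1b passed (log2 0.90, adjusted p = 0.0212), and it was the sole member to do so in any refit of this comparison.

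Ratios between members within a library do not depend on how libraries are scaled to each other, and describe how the levels of members stood to each other. Acacb made up 69.4 ± 4.56% of the summed Acaca and Acacb TPM in ND, 76.8 ± 3.47% in sHFD and 59.7 ± 4.81% in HFD (SD, n = 3 each). The HFD libraries, at 59.3%, 55.0% and 64.6%, did not overlap with either other diet. The summed carboxylases were 0.806 ± 0.168 times the Mlycd level in ND, 0.742 ± 0.096 times in sHFD and 1.10 ± 0.066 times in HFD. The HFD ratios of 1.13, 1.03 and 1.15 lay above the highest ND library, ND replicate 1 at 0.989. Cpt2 amounted to 0.159 ± 0.028 of the summed Cpt1a and Cpt1b TPM in ND, 0.167 ± 0.0059 in sHFD and 0.108 ± 0.0084 in HFD. Here too the HFD libraries (0.0985, 0.114 and 0.112) were below all others, with ND replicate 1 the nearest at 0.127.

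The isoform mix of carnitine palmitoyltransferase 1 moved less clearly. Cpt1a made up 37.0 ± 2.32% of the summed Cpt1a, Cpt1b and Cpt1c TPM in ND, 32.7 ± 2.05% in sHFD and 29.3 ± 4.03% in HFD. Cpt1b held 58.9 ± 3.63% in ND, 64.8 ± 2.10% in sHFD and 68.0 ± 4.99% in HFD. HFD replicate 3, with a Cpt1a share of 33.9%, lay within the sHFD range and just below the lowest ND library (34.4%). In all 9 libraries Cpt1b was the largest of the 3 isoforms, at 56.4% to 71.2%. These ratios were not tested, since the members were chosen with earlier results known.

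**Figure D3:**
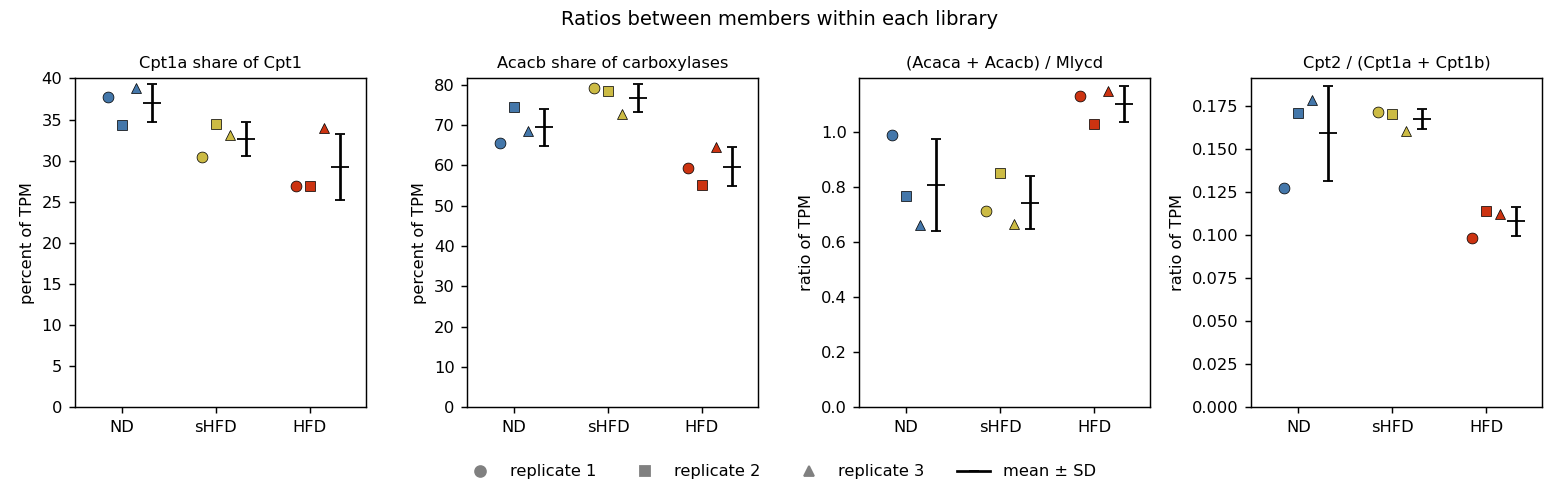
Ratios of TPM within each library by maternal diet: the Cpt1a share of the Cpt1 isoforms, the Acacb share of the carboxylases, the summed carboxylases over Mlycd, and Cpt2 over summed Cpt1a and Cpt1b, with mean ± SD of 3 libraries. HFD does not overlap with the other diets in the last 3 panels, whereas it overlaps with sHFD in the first.

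Genes that take part in the same pathway were set beside the members. Carnitine synthesis and other carnitine handling had 9 of 11 genes tested, of which 3 were lower in HFD than in sHFD and 0 higher. That share is near the 23.9% of all genes that were lower in this comparison, with a median log2 difference of -0.45 against -0.16 for all genes. Among them were Aldh9a1, an aldehyde dehydrogenase of carnitine synthesis (log2 -0.85, SE 0.18, limma adjusted p = 0.00407), and Crot, the peroxisomal carnitine octanoyltransferase (log2 -0.89, SE 0.25, adjusted p = 0.0161). Aldh9a1 kept its call in all 20 alternative fits, and Crot lost it without sHFD replicate 2 (adjusted p = 0.0513), sHFD replicate 3 (0.053), HFD replicate 1 (0.0676) or HFD replicate 2 (0.0588). The count of 3 was 1 without any of those same 4 libraries.

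Of 12 genes tested for AMP-activated kinase and carboxylase regulation, 4 were lower and 2 higher in HFD than in sHFD, near the 23.9% lower and 10.3% higher among all genes. Of the 12, 0 passed against ND, where 8 had an unadjusted p under 0.05, as did 4067 of the 13655 genes. Without ND replicate 1, 5 passed (28.1% of all genes), and without ND replicate 2, 2 passed (4.59%). Prkaa1, a catalytic subunit of the kinase that inactivates both carboxylases, was 7.47 ± 0.25 TPM in HFD and 21.3 ± 3.47 TPM in sHFD (SD, n = 3 each; log2 -1.38, SE 0.29, adjusted p = 0.00415). Prkaa2, the other catalytic subunit, named here after its values were seen, was more abundant and had its highest mean in HFD. It was 48.9 ± 8.60 TPM in HFD, 38.5 ± 9.36 TPM in sHFD and 32.6 ± 16.8 TPM in ND. Its log2 difference was 0.35 for HFD vs sHFD and 0.67 for HFD vs ND (limma adjusted p = 0.369 and 0.144). Mid1ip1, which promotes polymerization of acetyl-CoA carboxylase, was 55.5 ± 5.49 TPM in HFD and 33.7 ± 3.98 TPM in sHFD (log2 0.71, SE 0.17, adjusted p = 0.00882). In ND it was 48.3 ± 8.97 TPM and overlapped with HFD (HFD vs ND log2 0.21, limma adjusted p = 0.441). Every sHFD library lay below every ND library (log2 -0.50, adjusted p = 0.672). The calls of Prkaa1 and Mid1ip1 against sHFD both held in all 20 alternative fits. The count of 6 was 3 without sHFD replicate 2 and 3 without HFD replicate 2.

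Genes that supply or use malonyl-CoA had 5 of 10 lower in HFD than in sHFD (23.9% of all genes), 0 higher and a median log2 difference of -0.54. Against ND 1 of 10 was lower, near the 9.59% of all genes. Slc25a1, the mitochondrial citrate carrier that exports the carbon for cytosolic acetyl-CoA, was lower in HFD both against sHFD (log2 -0.68, SE 0.16, adjusted p = 0.00855) and against ND (log2 -0.66, SE 0.16, adjusted p = 0.0265). Mcat and Oxsm, enzymes of mitochondrial fatty acid synthesis, differed by -0.90 and -1.25 (adjusted p = 0.00653 and 0.00951) against sHFD. Slc25a1 missed the threshold under quantile normalization against sHFD (adjusted p = 0.0508) and against ND (0.0961), and against ND also without ND replicate 3 (0.13), HFD replicate 1 (0.0698) or HFD replicate 2 (0.137). The count of 5 became 3 under quantile normalization and without sHFD replicate 1, sHFD replicate 2, HFD replicate 1 or HFD replicate 2. Of the 7 biotin-dependent carboxylase and biotin supply genes tested, 1 was lower in HFD than in sHFD, beside 23.9% of all genes, and the median log2 difference was -0.01.

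Uptake and activation, the step before the shuttle, had 7 of 12 genes tested lower in HFD than in sHFD and 3 of 12 lower than in ND, with 0 higher. Of all genes, 23.9% and 9.59% were lower in these comparisons. Fabp3, the fatty acid binding protein of heart, was 1242 ± 178 TPM in HFD and 3304 ± 1024 TPM in sHFD (log2 -1.38, SE 0.30, adjusted p = 0.00514). The fatty acid transporter genes Slc27a1, Slc27a4 and Slc27a6 differed by -1.19, -1.34 and -1.19 against sHFD (adjusted p = 0.00446, 0.0013 and 0.0033) and were the 3 genes lower against ND (adjusted p = 0.0262, 0.0223 and 0.0203). Slc27a6 was low, at 1.31 ± 0.51 TPM in HFD. Cd36, of the same list and named here after its values were seen, was not lower in HFD. It was 1692 ± 349 TPM in HFD and 1544 ± 105 TPM in sHFD. Its log2 difference was 0.11 against sHFD and 0.08 against ND (limma adjusted p = 0.678 and 0.832). The 7 became 4 without sHFD replicate 2 and without HFD replicate 2. The 3 became 5 without ND replicate 1 (20.9% of all genes) and 0 without ND replicate 2, ND replicate 3, HFD replicate 1 or HFD replicate 2.

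Beta-oxidation in the matrix, the step after the shuttle, had 12 of 16 genes lower in HFD than in sHFD (23.9% of all genes), 0 higher and a median log2 difference of -0.70. Against ND 2 of 16 were lower, near the 9.59% of all genes, with a median of -0.51. Hadha, the alpha subunit of the trifunctional protein, was 319.6 ± 75.4 TPM in HFD and 722 ± 98.4 TPM in sHFD (log2 -1.19, SE 0.26, adjusted p = 0.00556). Etfdh, which passes the electrons of beta-oxidation to ubiquinone, was 152 ± 18.4 TPM in HFD and 313 ± 17.0 TPM in sHFD (log2 -1.04, SE 0.22, adjusted p = 0.00445). The genes lower against ND were Acadvl, the very long-chain acyl-CoA dehydrogenase (adjusted p = 0.0447), and Ech1, a dienoyl-CoA isomerase (adjusted p = 0.0174). That count of 2 was 11 without ND replicate 1 (20.9% of all genes), 1 without ND replicate 2 or any of the sHFD replicates, and 0 without ND replicate 3, HFD replicate 1 or HFD replicate 2.

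Of 14 PPAR, PGC-1 and ERR regulators, 6 were lower and 1 higher in HFD than in sHFD, beside 23.9% and 10.3% of all genes. Against ND 0 passed, and 5 had an unadjusted p under 0.05, as did 4067 of the 13655 genes. Without ND replicate 1, 4 passed (28.1% of all genes), and without ND replicate 2, 1 passed (4.59%). Esrra, the oestrogen-related receptor alpha that drives oxidative genes, was 46.3 ± 4.33 TPM in HFD and 86.6 ± 10.6 TPM in sHFD (log2 -0.89, SE 0.19, adjusted p = 0.00514), and Esrrb differed by -1.41 (adjusted p = 0.00331). Ppargc1b, a coactivator of these receptors, differed by -0.99 (SE 0.26, adjusted p = 0.0116), and Ppara, the fatty acid sensor of heart and liver, by -0.94 (SE 0.28, adjusted p = 0.0217). Against ND, HFD differed little in Ppargc1b and Ppara (log2 0.01 and 0.05, limma adjusted p = 0.984 and 0.917). For both genes every sHFD library lay above every ND library (log2 1.00 and 0.99, adjusted p = 0.67 each). Nrip1, a corepressor of the same receptors, was the gene higher in HFD than in sHFD, with 37.9 ± 12.5 TPM in HFD and 15.5 ± 1.44 TPM in sHFD (log2 1.19, SE 0.28, adjusted p = 0.00694). In ND Nrip1 was 25.1 ± 10.3 TPM and overlapped with both. The log2 difference was 0.60 for HFD vs ND and -0.59 for sHFD vs ND (limma adjusted p = 0.165 and 0.672). Ppargc1a, named here after its values were seen, was 33.8 ± 5.02 TPM in HFD and 28.7 ± 5.40 TPM in sHFD (log2 0.24, SE 0.27, adjusted p = 0.516). Ppara lost its call under quantile normalization (0.094) and without any single sHFD replicate (adjusted p from 0.0551 to 0.0609) or HFD replicate 2 (0.0721).

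**Figure D4:**
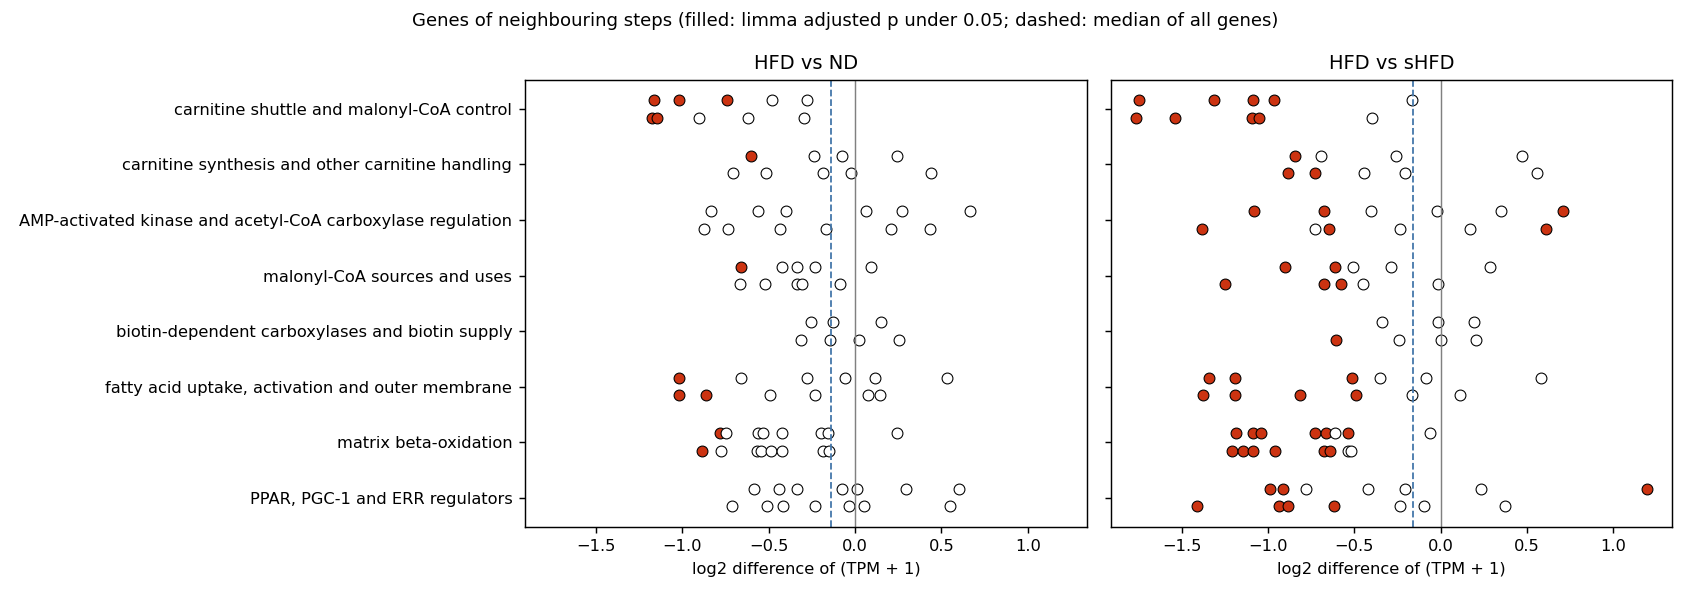
Log2 difference of (TPM + 1) of each tested gene in HFD vs ND and HFD vs sHFD, by pathway list, filled where limma's adjusted p was under 0.05 and with the median of all genes dashed. In HFD vs sHFD the shuttle has 8 filled points and beta-oxidation 12, all to the left of 0, while the kinase and regulator lists have filled points on both sides.

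The genes whose pattern over the 9 libraries was most like that of each member lower in HFD than in ND were taken from 10942 genes whose mean reached 5 TPM and whose symbol is not that of a clone or predicted gene, by the smallest mean absolute difference of centred log2(TPM + 1) values. For Cpt2 these were Mlycd (0.033), Fadd, an adaptor of death receptors (0.047), and Rubcn, a regulator of autophagy (0.069). For Mlycd they were Fadd (0.027), Cpt2 (0.033) and Arel1, a ubiquitin ligase (0.070). Cpt1a was followed by Ift172, an intraflagellar transport gene (0.058), Vwa8 (0.081) and Sirt4, a mitochondrial sirtuin (0.091). Slc25a20 was followed by Lrsam1 (0.054), Slc37a4 (0.055) and Rab5b (0.061), and Cpt1c by Dgka (0.061), Egflam (0.069) and Tshz2 (0.113). Fadd, for example, was 5.13, 14.1 and 8.83 TPM in ND, 14.2, 15.2 and 11.6 TPM in sHFD and 2.85, 3.02 and 4.33 TPM in HFD, so that it was low and high in the same libraries as Mlycd. Cpt1b had Crat as its nearest member (0.088), which ranked 6 among the 10942 genes, whereas the nearest member of Cpt1c, Cpt1a (0.298), ranked 635.

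Other lists moved with the members. The mean log2(TPM + 1) of the 10 members was 5.50, 6.24 and 5.72 in ND, 6.13, 6.37 and 5.94 in sHFD and 4.86, 4.87 and 5.36 in HFD. The same mean of 15 immediate-early and heat-shock genes, which respond to handling and stress of cells, was 9.01, 6.77 and 8.02 in ND, 6.87, 6.92 and 7.04 in sHFD and 8.57, 8.52 and 9.20 in HFD. The libraries with high stress gene levels, ND replicate 1 and the HFD libraries, were those with the lowest member levels. Among these libraries the order was mixed. HFD replicate 3 and ND replicate 1 had higher levels of both lists than HFD replicates 1 and 2. HFD replicate 3 was above ND replicate 1 in stress genes (9.20 and 9.01) and below it in members (5.36 and 5.50). Of the ND libraries, replicate 1 was the highest in stress genes and the lowest in members, and replicate 2 the reverse. All 15 of these genes were higher in HFD than in sHFD, where 10.3% of all genes were. Against ND 0 of 15 passed, and 5 had an unadjusted p under 0.05, near the share of 4067 in 13655 for all genes. Without ND replicate 1, 8 passed, where 28.1% of all genes did. Between sHFD and ND 0 of 15 passed, though all 15 were lower in sHFD by log2 difference, with a median of -0.98. Of these, 11 had an unadjusted p under 0.05, beside 1005 of the 13655 genes. The part of these stress genes in the result was not tested.

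The counts of cell type markers stand beside 23.9% of all genes lower in HFD than in sHFD and 9.59% lower than in ND. Of 10 cardiomyocyte markers 3 were lower in HFD than in sHFD, near the share of all genes, and 0 passed against ND, with median log2 differences of -0.39 and 0.04, and the 3 became 0 without sHFD replicate 1 and 1 without HFD replicate 3. Of 8 immune cell markers 8 were lower in HFD than in ND, with a summed level of 145 to 169.7 TPM in HFD and 297 to 397 TPM in ND, and 6 were lower than in sHFD, where the sum was 215 to 289.97 TPM. The 8 became 4 without HFD replicate 1 and 0 without ND replicate 3 or HFD replicate 2. Of 8 smooth muscle and pericyte markers 6 were lower in HFD than in sHFD (summed level 1372 to 1596 TPM in HFD and 1665 to 2435 TPM in sHFD) and 4 lower than in ND (1286 to 1541 TPM). Those 4 were Rgs5, Kcnj8, Pdgfrb and Cspg4, and the summed levels of HFD and ND overlapped. Acta2 and Tagln, named here after their values were seen, had higher means in HFD than in ND (log2 0.51 and 0.26, limma adjusted p = 0.167 and 0.383). The 6 became 3 without sHFD replicate 1 or 2 or HFD replicate 1 or 2, and the 4 became 1 without ND replicate 2 or 3 or HFD replicate 1 or 2, and 2 without any sHFD replicate. Of 6 red cell markers 5 were lower in HFD than in sHFD (2638 to 4836 TPM in HFD and 5910 to 8304 TPM in sHFD) and 1 lower than in ND (5005 to 12252 TPM). The 5 became 1 without sHFD replicate 1 or HFD replicate 2 and 2 without sHFD replicate 3 or HFD replicate 3, and the 1 became 5 without ND replicate 1 and 0 without ND replicate 3 or HFD replicate 1 or 2. The part of these cells in the shuttle result was not tested.

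Of 8 fibroblast markers 0 and of 8 endothelial markers 1 passed between HFD and sHFD. At an unadjusted p under 0.05 there were 1 and 2, beside 6228 of the 13655 genes. Liver and brown fat are tissues rich in Cpt1a and Cpt1b. The 5 hepatocyte markers in the table summed to 1.3 to 3.73 TPM. The 6 brown fat markers summed to 33.7 to 62.6 TPM, nearly all of it from Cidea (12.45 to 29.9 TPM) and Ppargc1a (14.98 to 39.0 TPM, also in the regulator list above), while Ucp1, the defining gene of brown fat, was at 0 to 0.60 TPM. Cidea was lower in HFD than in sHFD (log2 -0.82, SE 0.21, limma adjusted p = 0.0117), but not without sHFD replicate 1, and its part in the shuttle result was not tested. No marker of these lists was listed at 0 in every library.

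**Figure D5:**
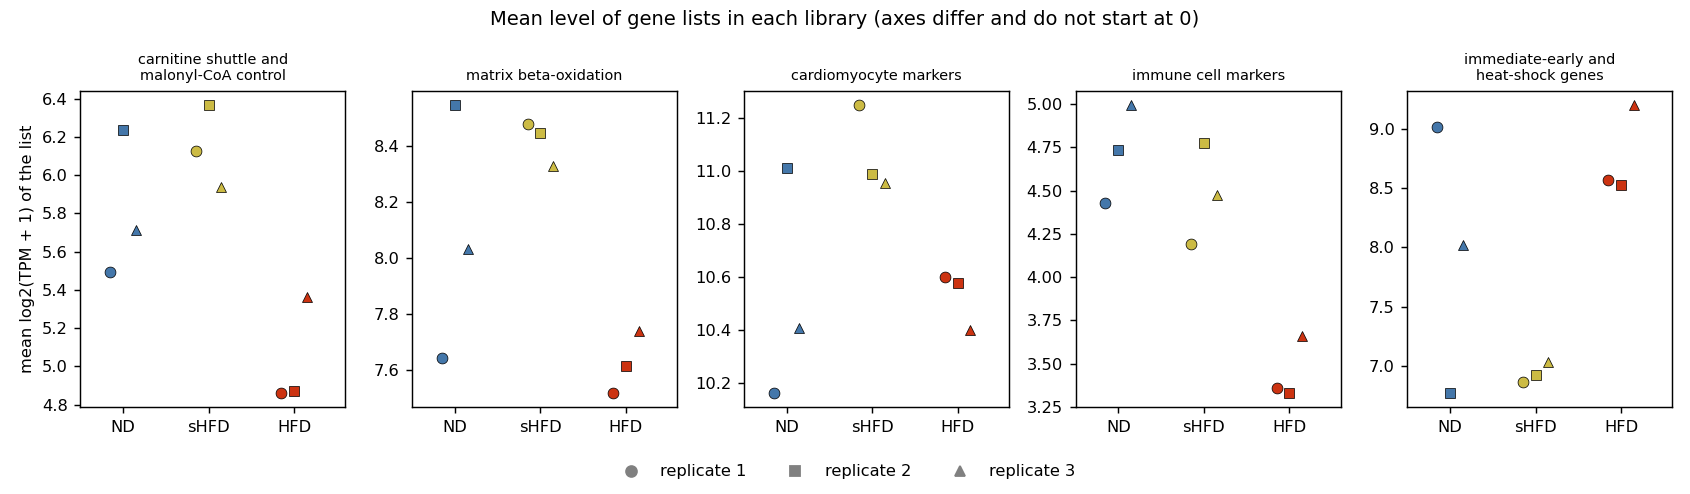
Mean log2(TPM + 1) of the members, of matrix beta-oxidation and of cardiomyocyte, immune and stress gene lists in each of the 9 libraries by maternal diet, on axes that differ and do not start at 0. Stress genes are at 6.87 to 7.04 in sHFD and at 8.52 to 9.20 in HFD, while the members are at 5.94 to 6.37 in sHFD and at 4.86 to 5.36 in HFD.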

How the data were processed

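The authors deposited 1 table of TPM per gene for 9 libraries. The submitters' processing notes list RSEM 1.3.1 and GRCm38 without a role for either, and mRNA was selected from total RNA per the labels' protocols. Which aligner and gene annotation served is not stated there or in the labels. Columns were assigned through their names, CON read as ND, MID as sHFD and HIGH as HFD with the same number. Each column of the deposited TPM sums to 1000000 within rounding, and all values are above 0 for the members. Depth is unknown, so no counting interval is given.

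Values were taken as log2(TPM + 1), and limma 3.58.1 in R 4.3.3 was fitted to the 13655 genes whose mean reached 1 TPM, with the 3 diets as terms over all 9 libraries, 6 residual degrees of freedom, an intensity trend and two-sided p-values adjusted over all genes by the Benjamini-Hochberg method. Differences on this scale understate those of low genes. With 3 libraries on each side an exact permutation p is at least 0.1, so none was used. The fit was tested on simulated data. The members and lists were chosen with earlier results of these data known. All 10 members are named; other list genes are named where they passed in any comparison, and similar genes by the rule given with them. Alternatives changed the pseudocount, the filter, the scaling, GC content (known for 98.1% of genes tested), the libraries in the fit, the variance model, library weights and a replicate block.
Promoter windows are RefSeq's for GRCm38.p6 and exon overlaps those of GENCODE M21.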

Additional observations from a re-analysis of the deposited data

How the results depend on the processing

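Of 600 member values recomputed in 20 alternative fits per comparison, 552 kept their direction and their side of the threshold, 37 lost a call, 9 gained one and 2 reversed: Acaca in sHFD vs ND without sHFD replicate 2 (log2 -0.050, with a range of -0.050 to 0.26 over the fits that left out a library) and Slc22a5 in HFD vs sHFD under quantile normalization (log2 0.033), neither of them called. The count of members called in HFD vs ND, 5 as reported, was 1 with no filter on low values, 0 with only the diets compared and 8 with array weights, whose estimation stopped before it converged. Leaving out a library gave 0 to 8 members called in HFD vs ND, 0 to 1 in sHFD vs ND and 7 to 8 in HFD vs sHFD. Where fewer libraries entered the fit, fewer degrees of freedom remained. Over all 20 fits, counts in HFD vs ND ran from 0 to 3 for carnitine handling, 0 to 7 for kinase and carboxylase regulation, 0 to 3 for malonyl-CoA sources and uses, 0 to 6 for uptake, 0 to 11 for beta-oxidation and 0 to 8 for the PPAR list. In HFD vs sHFD they ran from 1 to 7, 3 to 10, 3 to 8, 4 to 9, 9 to 15 and 5 to 11 in that order. The cause of the other changes was not tested. For all genes, the HFD vs ND split of calls was 175 higher and 1309 lower, against 668 and 996 under median-ratio scaling and 427 and 637 under quantile normalization. For HFD vs sHFD it was 1406 and 3259, against 2597 and 2622 and 2401 and 2407. The correlations of deviations between same-numbered libraries ran from -0.29 to 0.41 in 9 pairs, 4 of them over 0.1. Deviations within a diet sum to 0, so these correlations cannot show whether the numbers pair the libraries. With the replicate block, 5, 0 and 8 members were called in HFD vs ND, sHFD vs ND and HFD vs sHFD, as without it. TPM gives no depth, so precision rests on the spread of 3 libraries per diet.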
